A study of Mus musculus with 4 samples.

Results

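Arterial endothelial nuclei were sought in single-nucleus RNA-Seq data of whole lungs from 4 mice, and 417 of 7491 endothelial nuclei met the selection. The 2 WT mice were of the strain C57/BL6J, and the 2 Tg mice, bred on that background per the study's methods, carried VEcad-TRF2DN-Tg, a transgene for a TRF2 (telomeric repeat-binding factor) that acts as a dominant negative. The VE-cadherin promoter drives this transgene in endothelial cells of every vessel type, so arterial nuclei are not its only target. All mice were 8 to 9 weeks old. The study describes the lungs for these nuclei as those of mice exposed to chronic hypoxia, and its methods say that male mice were regularly used. A nucleus was a barcode with at least 1500 UMIs (unique molecular identifiers, each standing for 1 captured RNA molecule). It was called endothelial with at most 1 UMI of Ptprc, the pan-leukocyte gene CD45, and at least 5 UMIs from 3 or more of Pecam1, Cdh5, Tek, Ptprb, Shank3, Calcrl, Flt1 and Egfl7. It was selected as arterial with at least 3 UMIs from 2 or more of Stk32a, Dkk2, Efna5, Thsd7a, Esr2 and Gja5, and with fewer UMIs from 6 venous genes (Slc6a2, Vwf, Mmp16, Lhx6, Samd5 and Kirrel3). The levels of these genes therefore describe the selection and were not tested against other endothelial nuclei.

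Arteries carry blood under pressure, and their endothelium sits on an elastic lamina and is kept in its arterial state by Notch signalling through ligands such as Dll4 and Jag1, with Hey transcription factors as targets. Gja5 codes for connexin 40, a gap junction protein of arterial endothelium, Efna5 for the ephrin-A5 ligand, Dkk2 for a Wnt antagonist and Esr2 for oestrogen receptor beta. In the lung, arterial endothelium lines the vessels that narrow in pulmonary hypertension. Lymphatic endothelium, by contrast, depends on the transcription factor Prox1 and expresses Flt4 (VEGF receptor 3) and Reln (reelin).

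The selection found 66 nuclei in WT replicate 1 and 39 in WT replicate 2, against 182 in Tg replicate 1 and 130 in Tg replicate 2. They held 349301, 281770, 823828 and 749410 UMIs in the same order, with medians of 4420, 4497, 3935 and 4782 UMIs per nucleus. No barcode was shared between any pair of libraries among them. The 4 libraries held between 25269 and 44000 barcodes with at least 1500 UMIs, 134745 in all. The WT sums were smaller than either Tg sum, so that the WT levels were the less precise.

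The selected nuclei were not uniform, and the label fitted only part of them. Efna5 was found in 98.5% and 92.3% of the selected WT nuclei and in 95.6% and 95.4% of the selected Tg nuclei, and Thsd7a in 69.2% to 86.4%. Each of Stk32a, Dkk2, Esr2 and Gja5 was found in 7.69% to 28.2% of the nuclei of a mouse. In the other, non-lymphatic endothelial nuclei these 4 genes were each found in at most 1.98%, Thsd7a in 4.45% to 8.02% and Efna5 in 27.8% to 40.3%, at median depths of 2368 to 2908 UMIs. When every nucleus was thinned to 1500 UMIs, the share with Gja5 was 7.69% to 11.5% in the selected nuclei and 0.56% to 1.06% in the others. At the edge of the selection, 9, 10, 28 and 23 nuclei had exactly 3 arterial UMIs, and 26, 11, 34 and 27 nuclei stayed outside with 2. A larger number, 96, 79, 198 and 253 nuclei, stayed outside with at least 3 arterial UMIs that all came from 1 gene. As many or more venous than arterial UMIs kept out 21, 5, 40 and 20 nuclei. Of nuclei that met all else, 14, 22, 28 and 43 stayed outside with 2 Ptprc UMIs. With 4 endothelial UMIs it was 16, 15, 13 and 15 nuclei, in the same order of mice. The part of these edges in the shares of selected nuclei was not tested. Of the 417 nuclei, 203 were selected on Efna5 and Thsd7a alone. The genes on which the selection turned lie, on GRCm38, at 62604184 to 62881317 of chromosome 17 (Efna5) and 12311610 to 12749410 of chromosome 6 (Thsd7a).

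A set of 105 selected nuclei (25.2%) held at least 3 UMIs from 2 or more of the lymphatic genes Prox1, Mmrn1, Reln, Flt4 and Ccl21a, none of which the selection had used. They are called Prox1/Reln-gated here, and they numbered 24 of 66 and 13 of 39 in WT mice, and 31 of 182 and 37 of 130 in Tg mice. Only 12 of the 105 had a UMI of Stk32a, Dkk2, Esr2 or Gja5, against 202 of the 312 nuclei that were not gated. In the WT mice this was 0 of 24 and 1 of 13 gated nuclei, and in Tg mice 5 of 31 and 6 of 37. For WT replicate 1 this count of 0 allows a share of gated nuclei with such a UMI of up to 12.5% (3 counts of 24), and says nothing of nuclei that express the genes below the depth. The remaining 110 nuclei were not gated and had UMIs of Efna5 and Thsd7a only.

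**Figure D1:**
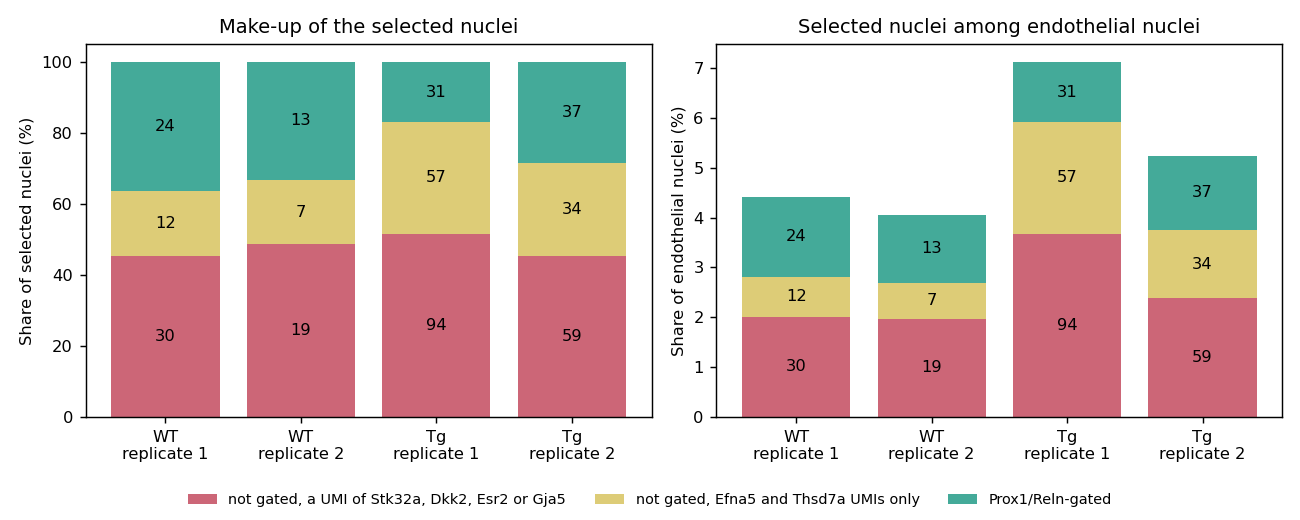
Make-up of the selected nuclei of each mouse, as a share of the selected nuclei (left) and of all endothelial nuclei (right), with the number of nuclei written in each bar. The Prox1/Reln-gated nuclei made up 36.4% and 33.3% of the selected nuclei in WT mice, and 17.0% and 28.5% in Tg mice.

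The gated nuclei and the selected nuclei that were not gated had different leading genes, with 1 shared among the 20 of each. Levels are in CPM (UMIs per 1000000 UMIs of the summed nuclei), as the mean ± SD of the 4 mice. In the gated nuclei Prox1, whose gene spans 190118035 to 190170714 of chromosome 1, stood at 595 ± 148 CPM, against 8.40 ± 5.64 CPM in the selected nuclei that were not gated and 8.04 ± 2.36 CPM in the other endothelial nuclei. Those are the 6839 nuclei left after 235 unselected nuclei that passed the same lymphatic gate were taken out, so the gate sets the low Prox1 level on that side. In the 235 nuclei Prox1 stood at 444 ± 134 CPM and Stab2 at 309 ± 96.9 CPM. Reln stood at 2017 and 1493 CPM in the gated WT nuclei and at 725 and 860 CPM in the gated Tg nuclei. Stab2, which codes for a scavenger receptor of sinusoidal and lymphatic endothelium, was at 459 ± 37.9 CPM in the gated nuclei and at 12.4 ± 13.3 CPM in those not gated. Prox1 and Reln define the gate, while Stab2 was used by neither the gate nor the selection. Thsd7a was at 565 ± 107 CPM in the gated nuclei and at 345 ± 30.9 CPM in the others, levels that the selection sets in part, since gated nuclei without the other 4 genes could pass only with Thsd7a.

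The nuclei that were not gated led with Cdh13, Pcdh9, Col5a2, Sulf1, Sncaip and Nuak1 when genes were ranked by the smallest of the 4 ratios to other endothelial nuclei, one ratio per mouse. Cdh13 codes for T-cadherin, a cadherin held by a lipid anchor and known on vascular endothelium. Its level was 531 and 294 CPM in WT and 694 and 405 CPM in the Tg nuclei that were not gated, against 57.0, 44.7, 102 and 57.3 CPM in the other endothelial nuclei of the same mice. Its log2 ratio was 2.59 to 3.11 in the 4 mice. Col5a2, a chain of fibrillar collagen V, had log2 ratios of 1.66 to 1.93, and Pcdh9, a protocadherin, of 1.89 to 2.96. Of 10 marker lists of other cells, 3 were higher in these nuclei than in other endothelial nuclei in all 4 mice, with mesothelial sums of 746, 1372, 1327 and 2321 CPM against 456, 660, 843 and 1133 CPM, ciliated sums of 1317, 1691, 1549 and 649 CPM against 1232, 603, 1011 and 584 CPM, and fibroblast sums of 2559, 2416, 1625 and 1603 CPM against 1432, 1995, 1413 and 1552 CPM. When nuclei with other lineages' UMIs beyond free RNA were left out on both sides, an alternative added after these values were seen, 5 of the 20 leading genes remained. Cdh13 again led, with a lowest log2 ratio of 2.97, followed by Bmx (1.96), Ptprr, Afap1l2, Sulf1 and Nuak1, and Eln, Edn1 and Smad6 entered the 20. The lowest log2 ratio of Pcdh9 turned to -0.48 and that of Col5a2 was 0.43. When the gated nuclei were kept in, the ranking was led by Reln, Stab2, Pld5, Mmrn1 and Prox1, of which Reln, Mmrn1 and Prox1 define the gate that also took the 235 lymphatic-gated nuclei out of the comparison. Of the 20 leading genes of all selected nuclei, 14 were among the 20 of the gated nuclei and 4 among the 20 of the nuclei not gated.

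In the nuclei that were not gated, 5 arterial genes outside the selection stood above other endothelial nuclei. On a list of 20 such genes, Sox17, Hey2, Bmx, Sema3g and Ltbp4 were higher than in other endothelial nuclei in all 4 mice, and Cxcr4 and Dach1 were lower in all 4. Over 12604 genes, 9.67% were higher and 16.7% lower in all 4 mice. Sema3g, a semaphorin of arterial endothelium, stood at 83.4, 68.6, 55.8 and 67.4 CPM against 40.7 to 45.9 CPM in other endothelial nuclei. Hey2, a Notch target, was at 16.1 ± 8.92 CPM against 2.86 ± 1.88 CPM, and was found at 1.09 ± 2.17 CPM in the gated nuclei. Few nuclei not gated had a UMI of Hey2, with 3 of 42 and 1 of 26 in WT and 13 of 151 and 8 of 93 in Tg mice. Bmx, a tyrosine kinase of arterial endothelium, varied most, with 140 and 19.6 CPM in WT and 260 and 77.1 CPM in Tg mice. In the gated nuclei Unc5b, Fbln5, Fbln2 and Ltbp4 of this list were higher in all 4 mice, and Efnb2, Gja4, Sema3g, Cxcl12, Vegfc, Nrp1, Jag1 and Dach1 were lower in all 4, beside 8.62% of all genes higher and 16.5% lower in all 4 mice.

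**Figure D2:**
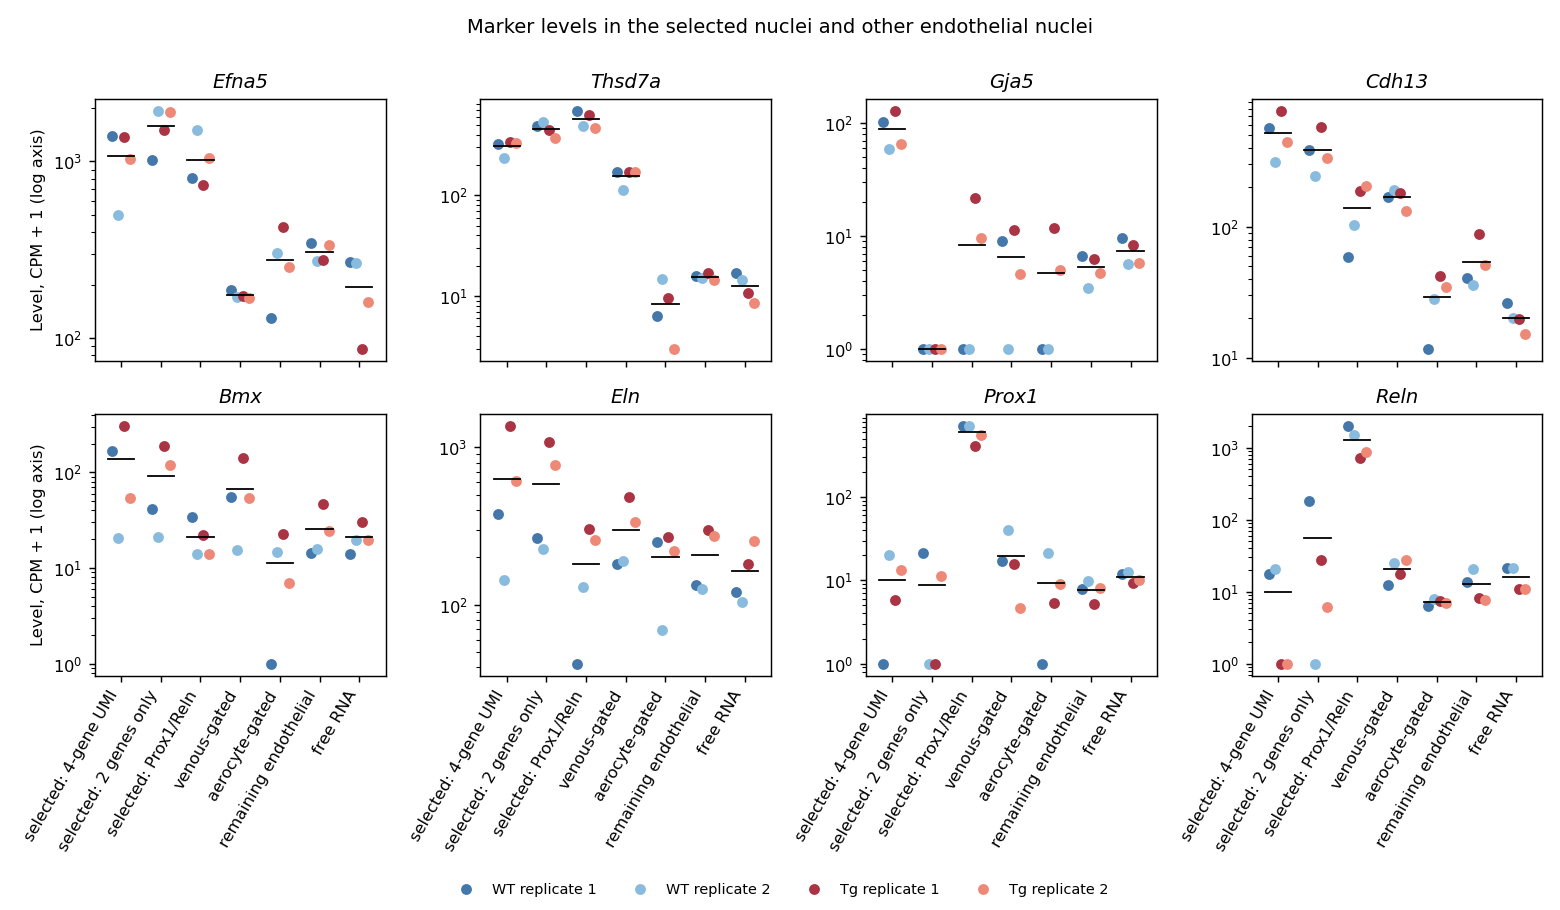
Levels of 8 genes in the 3 kinds of selected nuclei, in other endothelial nuclei and in barcodes taken as droplets without a nucleus (free RNA). They are shown as CPM + 1 on a log axis, with 1 point per mouse and a line at the mean of the 4 mice. Prox1 and Reln were high in the gated nuclei, Cdh13 and Eln in the others, and Gja5 was at 0 by definition in the nuclei selected on Efna5 and Thsd7a alone.

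The nuclei not gated and selected on Efna5 and Thsd7a alone had to reach the arterial UMIs from these 2 genes, so their Efna5 level of 1588 ± 428 CPM follows in part from the selection. Their Col5a2 level was 308 ± 119 CPM, against 294 ± 114 CPM in those with a UMI of the other 4 genes. Grip1, a scaffold protein, differed widely in them between mice, with 489 and 5234 CPM in WT and 1320 and 3628 CPM in Tg mice. Bnc2, a zinc finger protein, followed the same mice, with 407, 2110, 468 and 1343 CPM. In WT replicate 2 these values rest on 7 nuclei.

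Other endothelial programmes were compared in the nuclei that were not gated, where 9.67% of all genes were higher and 16.7% lower in all 4 mice. Of 22 genes of elastic fibres and basement membrane, Eln (elastin), Fbn1 (fibrillin-1), Ltbp4 and Lama4 were higher than in other endothelial nuclei in all 4 mice, and Col4a2 was lower. Of 16 genes of endothelin, nitric oxide and prostacyclin, Edn1 (endothelin-1), Nos3 (endothelial nitric oxide synthase) and Ptgis (prostacyclin synthase) were higher in all 4 mice, and Ednrb and Ace lower, leaving aside Calcrl, which was used to call a nucleus endothelial. Of 20 BMP pathway genes, 8 were higher (Smad9, Smad6, Smad7, Id3, Bmp4, Bmp6, Gata6 and Tgfbr3) and 1 lower (Smad5). Of 7 genes of general capillary endothelium, Kit, Cd36, Tspan8 and Lpl were lower in all 4 mice and none was higher. Of 19 Notch genes Hey2 and Maml2 were higher and Hes1 lower. Of 22 endothelial transcription factors 2 were higher and 5 lower. Among 16 junction genes 2 were higher and 3 lower, and among 24 ephrin and axon guidance genes 6 were higher and 1 lower. The last 2 counts include Cdh5, Gja5 and Efna5, which were used to choose the nuclei. These counts describe nuclei chosen by their arterial genes and carry no test. Neither they nor those of the arterial list above were repeated without the nuclei that held other lineages' UMIs. The part of mesothelial, ciliated and fibroblast RNA in them was not tested.

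RNA from outside the nucleus and from other cells was present in the selected nuclei. Free RNA was measured in the barcodes ranked 45000 to 90000 by UMIs. They held at most 1178 and 1296 UMIs in WT and 988 and 1474 UMIs in Tg mice. Whether some held a nucleus was not tested, and they are taken here as droplets without a nucleus. The share of free RNA in the selected nuclei was estimated from 6 genes of airway secretory cells. It was 34.0% and 31.1% in WT and 23.8% and 28.7% in Tg mice. In the other endothelial nuclei it was 54.1% and 55.6% in WT and 33.2% and 41.7% in Tg mice. The part of this difference in the comparisons with those nuclei was not tested. The free RNA itself differed between the genotypes. Scgb1a1, the club cell secretoglobin, made up 14242 and 14681 CPM of it in WT and 117613 and 35512 CPM in Tg mice. The median share of mitochondrial UMIs was 0.0436% and 0.0647% in WT mice and 0.236% and 0.276% in Tg mice, and the part of these differences in the comparisons of the genotypes was not tested. Beyond free RNA, 18 of 66, 16 of 39, 51 of 182 and 41 of 130 selected nuclei held more UMIs of another lineage's marker list than free RNA gave, most often fibroblast genes (10, 6, 23 and 11 nuclei) or mesothelial genes (4, 6, 16 and 19 nuclei). All 12 fibroblast markers were detected in WT replicate 1 and in Tg replicate 1, 10 in WT replicate 2 and 11 in Tg replicate 2. Their summed level was 2219 and 2353 CPM in WT and 1674 and 1657 CPM in Tg mice, against 1350, 1754, 1189 and 1398 CPM in the free RNA.

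The share of selected nuclei among endothelial nuclei was compared between the genotypes. It was 4.42% in WT replicate 1 (95% exact binomial interval 3.44 to 5.59) and 4.05% in WT replicate 2 (2.89 to 5.49), 7.13% in Tg replicate 1 (6.16 to 8.19) and 5.24% in Tg replicate 2 (4.40 to 6.19), intervals that cover counting error only. Both Tg mice were above both WT mice, and the difference of the means was 1.95 percentage points with p = 0.33 by the exact two-sided permutation test, which is the smallest p that 2 mice against 2 allow. Among nuclei with at least 3000 UMIs the shares overlapped, with 9.54% and 7.69% in WT and 11.1% and 8.57% in Tg mice, a difference of 1.21 points with p = 0.67 by the exact permutation test. Without the gated nuclei the shares were 2.81% and 2.70% in WT and 5.91% and 3.75% in Tg mice, again with p = 0.33 by the exact permutation test. The gated nuclei alone made up 1.61% and 1.35% of the endothelial nuclei in WT and 1.21% and 1.49% in Tg mice, where the groups overlapped. A share of nuclei depends on how well each vessel type gave nuclei, and fewer cells and fewer recovered nuclei cannot be told apart.

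Expression was then compared between Tg and WT in the selected nuclei, with the UMIs summed per mouse and edgeR's quasi-likelihood test over the 4 mice. TRF2 protects telomeres, and the question was which genes of these nuclei differ with its dominant-negative form. At an adjusted p (Benjamini-Hochberg) under 0.05, 225 of 8605 genes were higher in Tg mice (2.61%) and 36 were lower (0.418%), 3.03% together. Without the gated nuclei 169 of 7091 were higher (2.38%) and 52 lower (0.733%), 3.12% together, and 185 of the 261 genes were called in both. Nothing in the labels says how the 2 mice of a genotype were related, so that these p-values measure only the spread between these samples. The count was 547 without WT replicate 1, 797 without WT replicate 2 and 116 without Tg replicate 1.

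The 6 arterial genes of the selection are given as values with no test, since the selection required their UMIs. Efna5 stood at 1137 and 1026 CPM in WT and 1307 and 1262 CPM in Tg mice, at a log2 fold change of 0.29 ± 0.22 (SE). Gja5 stood at 51.5 and 31.9 CPM in WT and 68.0 and 30.7 CPM in Tg mice, and the groups overlapped. The log2 fold changes of Stk32a, Dkk2, Thsd7a and Esr2 were -0.17 ± 0.41, 0.83 ± 0.58, -0.00 ± 0.24 and -0.06 ± 0.45. Dkk2 had 28 and 3 UMIs in WT, and its log2 fold change was 2.95 without WT replicate 1 and 0.05 without WT replicate 2.

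Of the arterial genes outside the selection, 0 of 15 tested of 20 were called, with a median log2 fold change of 0.08. Bmx was at 103 and 17.7 CPM in WT and 218 and 57.4 CPM in Tg mice, and Sema3g at 54.4, 53.2, 47.3 and 57.4 CPM. In the nuclei not gated 1 of 13 tested was called, Dach1, a transcription factor known from coronary artery growth. Its log2 fold change was -1.34 there with an adjusted p of 0.025, and -0.96 with an adjusted p of 0.069 over all selected nuclei (edgeR), and it was -0.48 with an adjusted p of 0.45 in nuclei without the other lineages' UMIs. Its level over all selected nuclei was 255 and 323 CPM in WT and 142 and 145 CPM in Tg mice.

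Notch receptors, ligands and targets gave 0 calls among 12 tested of 19, with a median log2 fold change of -0.34 against 0.0005 for all genes. The ligand Jag1 was at 152 and 56.8 CPM in WT and 52.2 and 57.4 CPM in Tg mice, so that 1 WT mouse stood apart, and its log2 fold change was -0.92 ± 0.41. Without 1 mouse it ranged from -1.47 (without WT replicate 2, adjusted p of 0.0014 in edgeR) to -0.05 (without WT replicate 1). Jag2, another ligand, had -0.48 ± 0.52, and -1.02 to -0.03 without 1 mouse. Dll4 had 6, 2, 11 and 1 UMIs and Dll1 had 1, 4, 5 and 4 UMIs in WT replicates 1 and 2 and Tg replicates 1 and 2, too few to be tested. The receptor Notch1 was at 57.3 and 67.4 CPM in WT and 82.5 and 82.7 CPM in Tg mice, and Notch3 at 22.9, 42.6, 13.4 and 18.7 CPM; neither passed.

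The p53 and CDK inhibitor list, chosen because telomere damage is known to signal through p53, gave 0 calls among 10 tested of 22. Cdkn1a, which codes for the CDK inhibitor p21, was counted at 1 and 8 UMIs in WT and 33 and 37 UMIs in Tg mice, or 2.86 and 28.4 against 40.1 and 49.4 CPM. Both Tg mice were above both WT mice, with a log2 fold change of 1.65 ± 0.65 and an adjusted p of 0.23 (edgeR). Without WT replicate 2 it was 3.87 with an adjusted p of 0.00062, and without WT replicate 1 it was 0.66 and did not pass (edgeR). In the free RNA it was at 43.2 and 67.0 CPM in WT and 92.0 and 129 CPM in Tg mice, above the level in the nuclei of the same mouse in each case. Mdm2, the p53 target that limits p53, was at 152 and 121 CPM in WT and 51.0 and 64.1 CPM in Tg mice, with an adjusted p of 0.056 in edgeR. The senescence secretory list gave 0 calls among 7 tested of 22.

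Shelterin, the complex that caps telomeres, gave 0 calls among 5 tested of 8. Terf2, the gene of TRF2 itself, stood at 80.2 and 46.1 CPM in WT and 55.8 and 65.4 CPM in Tg mice, and the log2 fold change was -0.05 ± 0.34. The counts do not say whether UMIs of the transgene map to this gene, so that this is no check of the genotype labels. The hypoxia response (12 tested of 18), the junctions (15 of 16), the endothelial transcription factors (14 of 22) and the oestrogen receptors and partners (9 of 13) each gave 0 calls as well, where Cdh5 and Gja5 of the junctions and Esr2 of the oestrogen receptor list had been used to choose the nuclei. The lowest and highest log2 fold changes were -1.06 and 0.37 for the hypoxia response, -0.60 and 0.80 for the junctions, -0.90 and 1.44 for the transcription factors and -0.51 and 0.12 for the oestrogen receptor list. At an unadjusted p under 0.05 edgeR gave 5 arterial genes outside the selection, 2 of the Notch list, 3 of the p53 list, 2 of the senescence secretory list, 0 of shelterin, 1 of the hypoxia response, 2 of the junctions, 3 of the transcription factors and 0 of the oestrogen receptor list. Over all 8605 genes tested it gave 1546. DESeq2 called 1 gene of the senescence secretory list and 0 of each of the others. On simulated data the same fit recovered 78.5% of genes changed 4-fold and 12.5% of genes changed 2-fold, so that changes of the size of most of these values were rarely detectable.

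**Figure D3:**
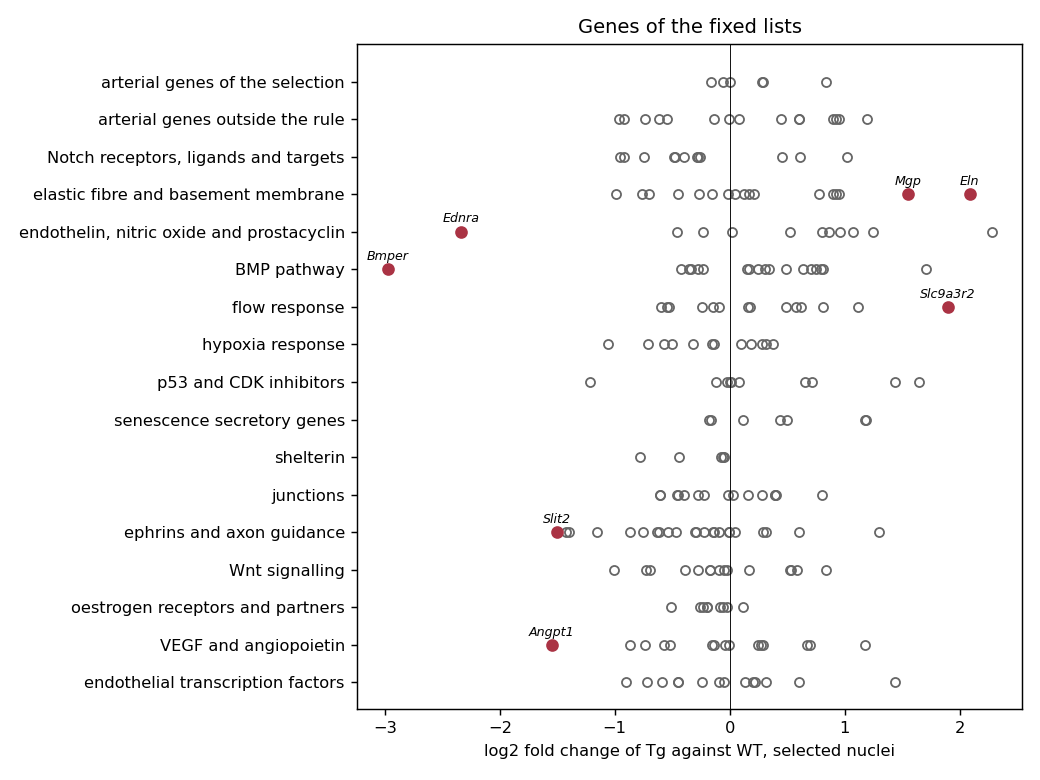
The log2 fold change of Tg against WT in all selected nuclei for each tested gene of the lists, with genes past an adjusted p of 0.05 filled and named. Sfrp1 and Gpihbp1, at 0 UMIs in both WT mice, are not drawn. The genes of the selection are drawn as a description. The arterial, Notch, p53, shelterin, hypoxia and junction lists have no filled point.

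Of 17 tested of 22 genes of elastic fibres and basement membrane, Eln and Mgp rose in Tg mice, beside 2.61% of all genes tested. The median log2 fold change of the list was 0.12. Without the gated nuclei only Eln of 14 tested was called, and with free RNA subtracted neither Eln nor Mgp was. Eln, which codes for elastin, was at 243 and 153 CPM in WT and 1092 and 543 CPM in Tg mice, and the groups did not overlap. Its log2 fold change was 2.09 ± 0.39 with an adjusted p of 0.026, and 1.98 with an adjusted p of 0.048 without the gated nuclei (edgeR). In the free RNA Eln was at 119 and 104 CPM in WT and 180 and 253 CPM in Tg mice, below the nuclei of the same mouse in every case. Mgp, matrix Gla protein, an inhibitor of calcification and of BMPs, was at 198 and 256 CPM in WT and 814 and 460 CPM in Tg mice, and the log2 fold change was 1.55 ± 0.33 with an adjusted p of 0.041 in edgeR. Here the free RNA was above the nuclei of the same mouse, at 375, 655, 1799 and 1125 CPM. Without Tg replicate 1 the log2 fold changes were 1.48 for Eln and 1.07 for Mgp, with adjusted p of 0.062 and 0.21 (edgeR). In other endothelial nuclei the log2 fold changes were 1.14 for Eln and 1.25 for Mgp.

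Other list members that rose were few, beside 2.61% of all genes tested. Slc9a3r2, a scaffold protein of the flow response list, had 11 and 5 UMIs in WT and 90 and 55 UMIs in Tg mice, and the log2 fold change was 1.90 ± 0.42 with an adjusted p of 0.048 (edgeR), 1 of 14 tested. Its adjusted p was 0.25 without Tg replicate 1 and 0.13 without the gated nuclei in edgeR, and 0.10 in DESeq2. It was 0.33 with free RNA subtracted, 0.073 without other lineages' UMIs and 0.074 with at least 5 arterial UMIs (edgeR). Gpihbp1, which anchors lipoprotein lipase to capillary endothelium, was the 1 call among 6 tested of 7 general capillary genes. It had 0 UMIs in both WT mice and 18 and 17 UMIs in Tg mice. It was at least 4.68-fold higher when the WT group is set at a floor of 3 UMIs over both mice. Sfrp1, a Wnt antagonist, was the 1 call among 16 tested of 21 Wnt signalling genes. It had 0 and 0 against 26 and 20 UMIs, at least 6.15-fold higher by the same floor. DESeq2 gave neither Gpihbp1 nor Sfrp1 an adjusted p, with at least 5 arterial UMIs that of Sfrp1 was 0.053 in edgeR, and Gpihbp1 was not tested without the gated nuclei. The free RNA levels of Gpihbp1 were 6.13 and 5.48 CPM in WT and 27.9 and 17.9 CPM in Tg mice.

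The rule for named genes ranked rises by fitted log2 fold change, which for genes at 0 UMIs depends on the fit, and 8 of its 10 rises had no UMI in either WT mouse. Besides Gpihbp1 and Sfrp1 they were Far1os (0 and 0 against 55 and 29 UMIs), Oxa1l (23 and 18 UMIs in Tg mice), Grip1os2 (21 and 17), Gm20536 (15 and 18), Gm12002 (17 and 16) and Gm13449 (15 and 16). Far1os was at least 11.2-fold higher and the other 5 at least 4.14-fold to 5.48-fold higher, by the floor of 3 UMIs over the WT mice. Far1os and Grip1os2 carry the names of opposite-strand transcripts of Far1 and Grip1. The other rises were Slurp1 (1 and 1 against 85 and 81 UMIs) and Hbb-bt (3 and 1 against 187 and 108 UMIs), a beta globin gene of red cells. Without 1 mouse 5 of the 8 genes at 0 UMIs in WT lost the threshold, namely Gm12002, Gm13449 and Gm20536 without WT replicate 1 (adjusted p of 0.061 to 0.082), Far1os without Tg replicate 1 (0.23) and Sfrp1 without Tg replicate 2 (0.24), in edgeR. Oxa1l, Grip1os2, Gpihbp1, Gm20536, Gm12002 and Gm13449 were not tested when either Tg mouse was left out, nor was Sfrp1 without Tg replicate 1, so that those settings say nothing of them. Oxa1l and Grip1os2 had adjusted p of 0.056 and 0.052 without the gated nuclei (edgeR).

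Ribosomal protein genes, haemoglobin genes and markers of other lung cells were among the rises, which made up 2.61% of all genes tested. Of 77 ribosomal protein genes tested, 69 were higher and 0 lower, with a median log2 fold change of 2.36, beside a median log2 ratio of 2.65 in the free RNA. All 4 haemoglobin genes tested were higher, with medians of 4.00 in the nuclei and 4.38 in the free RNA. Markers of other lung cells that rose were 3 of 8 tested for airway secretory cells (Scgb1a1, Scgb3a2 and Bpifa1), 1 of 10 for alveolar type 2 cells (Sftpa1), 1 of 10 for alveolar type 1 cells (Ager) and 1 of 7 for mesothelium (Msln). The lowest log2 fold changes in these lists were -0.92, -0.56, -0.01 and -0.30. Scgb1a1 went from 5099 and 4621 CPM in the WT to 28092 and 10193 CPM in the Tg nuclei. Without Tg replicate 1 Scgb1a1, Scgb3a2, Bpifa1 and Ager no longer passed, with adjusted p of 0.088 to 0.11 in edgeR, nor did Ager without WT replicate 1. Of the 261 genes called, 260 had the same direction in the free RNA, beside 73.6% of all genes tested. When free RNA was subtracted from each mouse's sums, 1 of 6718 genes was called (0.0149%), with 691 at an unadjusted p under 0.05, and without the gated nuclei 4 of 5451 (0.0734%). Of the 261 genes, 165 could still be tested after subtraction, and only Wdr17 passed the threshold. By their log2 fold changes 130 of 131 rises were still higher and 34 of 34 falls still lower. These genes were called on the same UMIs, so that the kept directions are a description and no test.

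**Figure D4:**
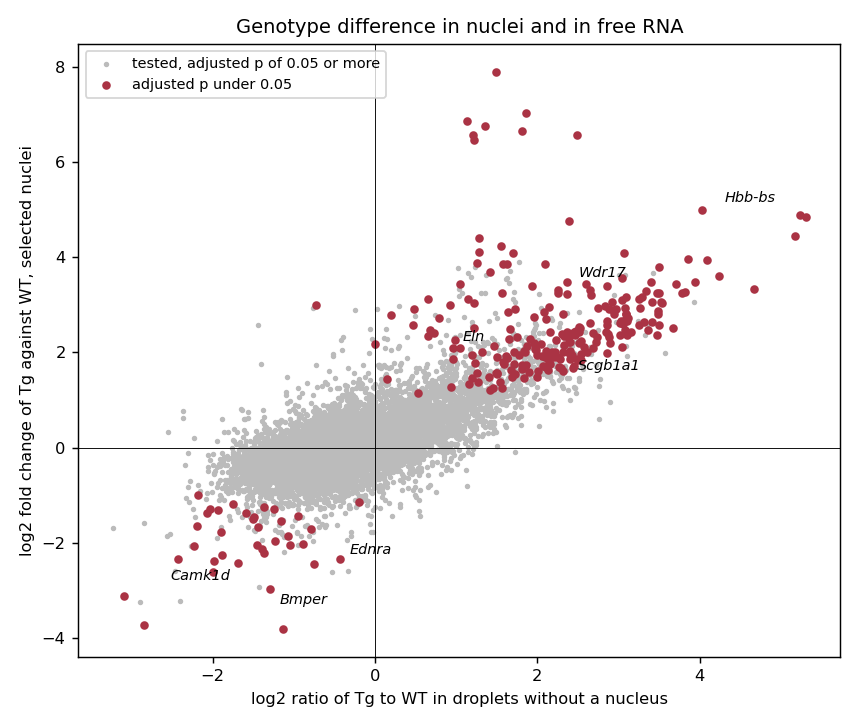
Each tested gene by its log2 ratio of Tg to WT in free RNA (horizontal axis) and its log2 fold change in the selected nuclei (vertical axis). Free RNA is from barcodes taken as droplets without a nucleus. The 261 genes past an adjusted p of 0.05 in edgeR are in red. All but 1 of the red points have the same sign on both axes.

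Wdr17 was the gene called after the subtraction of free RNA. It was singled out after its values were seen, and it codes for a WD repeat protein and spans 54629055 to 54887184 of chromosome 8 on GRCm38. Its counts were 44 and 39 UMIs in WT and 1325 and 943 UMIs in Tg mice, or 126 and 138 against 1608 and 1258 CPM. The log2 fold change was 3.49 ± 0.27 with an adjusted p of 0.0032, and 3.44 with an adjusted p of 0.031 after subtraction (edgeR). Without the gated nuclei it was 3.59, and in the other endothelial nuclei 3.68, so that the rise was also seen outside the selected nuclei. In the free RNA it stood at 32.9 and 28.6 CPM in WT and 142 and 182 CPM in Tg mice. In the nuclei selected on Efna5 and Thsd7a alone it was at 122 and 507 CPM in WT and 2001 and 2352 CPM in Tg mice. In those with a UMI of the other 4 genes it was at 112 and 38.8 CPM in WT and 1473 and 813 CPM in Tg mice.

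Of all genes tested 0.418% fell in Tg mice, among them Bmper, Ednra, Angpt1 and Slit2. Bmper, a secreted binder of BMPs at 23223076 to 23485200 of chromosome 9, had 35 and 43 UMIs in WT and 12 and 12 UMIs in Tg mice, or 100 and 153 against 14.6 and 16.0 CPM. Its log2 fold change was -2.98 ± 0.36 with an adjusted p of 0.0070 in edgeR, the 1 call among 18 tested of 20 BMP pathway genes. Ednra, the endothelin A receptor, at 77663031 to 77724464 of chromosome 8, fell from 65.8 and 124 CPM to 18.2 and 17.3 CPM, a log2 fold change of -2.34 ± 0.41 with an adjusted p of 0.022 in edgeR, the 1 call among 11 tested of 16 genes of endothelin, nitric oxide and prostacyclin. Angpt1, the ligand of the endothelial receptor Tek, was the 1 call among 15 tested of 19 VEGF and angiopoietin genes. It went from 252 and 263 CPM to 70.4 and 101 CPM. Slit2, a guidance ligand, was the 1 call among 23 tested of 24 ephrin and axon guidance genes. It went from 595 and 412 CPM to 163 and 184 CPM. Without Tg replicate 1 Ednra, Angpt1 and Slit2 no longer passed, with adjusted p of 0.057, 0.13 and 0.10 in edgeR.

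Ednra is known from mural cells, and Slit2 is on the fibroblast marker list. The 10 smooth muscle markers, 6 to 9 of them detected, summed to 160 and 220 CPM in WT and 109 and 116 CPM in Tg mice, and to 233 and 289 CPM against 101 and 80.9 CPM in the nuclei not gated. The 10 pericyte markers, 8 or 9 of them detected, summed to 106 and 369 CPM in WT and 157 and 137 CPM in Tg mice, and to 132 and 470 CPM against 138 and 108 CPM in the nuclei not gated. Smooth muscle markers were higher in both WT mice, and pericyte markers stood above both Tg mice in WT replicate 2 only, and their part in the falls was not tested. Most WT UMIs of Bmper and Ednra lay in nuclei that also held other lineages' UMIs. In the 48 and 23 WT nuclei without such UMIs, Bmper had 3 and 2 UMIs of its 35 and 43, and Ednra 1 and 0 of its 23 and 35. In the same class of Tg nuclei Bmper had 9 and 2 UMIs and Ednra 4 and 6. Slit2 was then at 106 and 21.9 CPM in WT and 79.5 and 110 CPM in Tg mice, and its log2 fold change turned to 0.37 with an adjusted p of 0.74 (edgeR). Slit2 is on the fibroblast list by which nuclei were left out, so that its values there follow in part from the filter. Angpt1 had a log2 fold change of -0.22 with an adjusted p of 0.86 (edgeR). Of the 36 genes that fell, 26 could still be tested in these nuclei and 4 were called, and of the 225 that rose 208 could be tested and 94 were called. Over all genes tested in these nuclei 107 were called higher and 12 lower. The nuclei held fewer UMIs, 236846 of 349301 and 91368 of 281770 in WT, and 503005 of 823828 and 399804 of 749410 in Tg mice. The part of this loss in the lost calls was not tested.

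**Figure D5:**
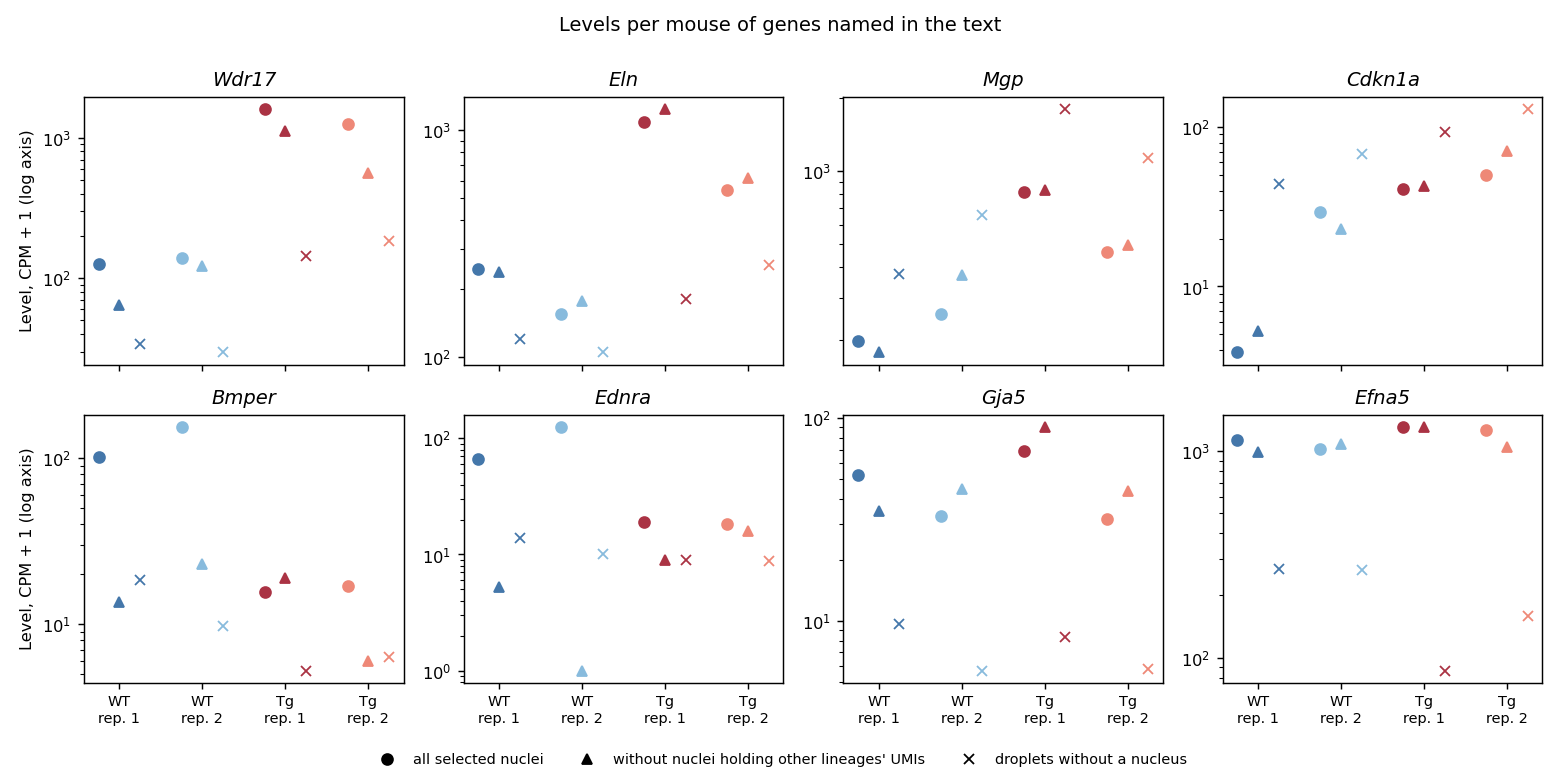
Levels of 8 genes in each mouse as CPM + 1 on a log axis. Circles are all selected nuclei, triangles those without other lineages' UMIs beyond free RNA, and crosses barcodes taken as droplets without a nucleus. Wdr17 and Eln stay higher in both Tg mice in either set of nuclei, while without those UMIs Bmper is at 12.7 and 21.9 CPM in WT against 17.9 and 5.00 CPM in Tg, and Ednra at 4.22 and 0 CPM in WT.

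The 10 largest falls by the rule were Mark1, Tnip3, Gm48099, Bmper, Gm15564, Adamts15, Sdk1, Prr16, Ednra and Camk1d. Mark1, a microtubule affinity kinase, had 13 and 23 UMIs in WT and 3 and 3 in Tg mice, and 0 UMIs in the WT nuclei without other lineages' UMIs. Camk1d, a calcium-dependent kinase, fell from 2777 and 1324 CPM to 421 and 368 CPM, a log2 fold change of -2.34 ± 0.35. Tnip3 and Adamts15 no longer passed without either Tg mouse, with adjusted p of 0.096 to 0.71 in edgeR. Camk1d kept -2.46 with an adjusted p of 0.0052 in the nuclei without other lineages' UMIs (edgeR). Its free RNA level was 5487 and 3683 CPM in WT and 986 and 726 CPM in Tg mice, above that of the nuclei of the same mouse.

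Whether the selected nuclei differed from the other endothelial nuclei in their response was tested as an interaction, in 1 edgeR fit of 13815 genes with each mouse as a block. In the selected nuclei alone the count filter had passed 8605 genes, and 7091 without the gated nuclei. Many genes of the interaction fit thus had few UMIs in the selected nuclei, which limits what could be called among them. No gene was called (0.0%), with 758 at an unadjusted p under 0.05, and DESeq2 called 0 as well, with 169. The lowest adjusted p was 0.058. On simulated data this test recovered 0% of genes changed 2-fold and 38% of genes changed 4-fold, so that most differences of that size were missed there. The simulated sums of both classes were drawn independently, with the mean dispersion of the selected nuclei and no shared effect of the mouse. The recovery in the real data can therefore differ. When the gated nuclei were left out, 19 of 13627 genes (0.139%) were called, 18 with a lower and 1 with a higher Tg effect in the selected nuclei. The split differed between choices. Without the gated nuclei and other lineages' UMIs it was 3 higher and 2 lower, and without the gated nuclei and with free RNA subtracted 0 and 2. In nuclei not gated with a UMI of Stk32a, Dkk2, Esr2 or Gja5 it was 3 and 31. Over all selected nuclei it was 48 higher and 201 lower without WT replicate 1, 7 and 22 without a filter on low counts, 2 and 7 without Tg replicate 2, 1 and 2 without Tg replicate 1, 70 and 31 without WT replicate 2, and 29 and 10 without other lineages' UMIs. Among the lower effects the largest were of Ednra (-3.42 ± 0.47 on the log2 scale, adjusted p of 0.012 in edgeR) and Bmper (-3.06 ± 0.56, adjusted p of 0.045). In nuclei with neither Prox1/Reln gating nor other lineages' UMIs these differences were 0.29 and -0.08. The 1 higher gene was Gxylt2, a xylosyltransferase that acts on Notch, at 13.2 and 4.90 CPM in WT and 138 and 52.0 CPM in the Tg nuclei not gated. Its WT levels rest on few UMIs, since the WT sums held 227824 and 204050 UMIs of all genes. The difference was 3.33 ± 0.55 with an adjusted p of 0.026 (edgeR). It was 4.28 with an adjusted p of 0.0497 in the nuclei with neither kind of UMIs, and 2.79 with an adjusted p of 0.071 over all selected nuclei.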

How the data were processed

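Single-nucleus RNA-Seq was performed on lungs of 2 WT and 2 VEcad-TRF2DN-Tg mice. The authors deposited unfiltered UMI counts of 32285 genes per barcode for each mouse, made with Cell Ranger 6.1.1 on mm10 per the submitters' processing notes, with intronic reads counted. Their own filters, decontX and integration are not in these values. The libraries held 125261739 to 182014706 UMIs, and precision is limited by the 281770 to 823828 UMIs of the selected nuclei. The selection, the gene lists and the named genes were chosen with earlier results of these data known.

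UMIs of the selected nuclei were summed per mouse. Genes were filtered by filterByExpr (minimum count 10) and tested with edgeR 4.0.16 (TMM, glmQLFit, R 4.3.3), with DESeq2 1.42.0 as an alternative, after a check on simulated data. The SE of an edgeR log2 fold change is an approximation, its absolute value divided by the square root of the quasi-likelihood F statistic. The free RNA profile was scaled by Scgb1a1, Scgb3a1, Scgb3a2, Bpifa1, Bpifb1 and Reg3g. Another lineage was counted beyond free RNA when its list held UMIs of 2 or more genes, at least 5 UMIs more than a barcode made wholly of free RNA would (Poisson p under 0.001). Doublets were not called otherwise. Named genes were the 10 largest rises and falls without overlap of the mice (outside the selection and other lineages' lists), the list members called with a few others of each list chosen after their values were seen, the 5 largest interactions in each direction, the leading 20 genes against other endothelial nuclei, and Cdkn1a, Terf2, the arterial genes of the selection and the Notch ligands.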

Additional observations from a re-analysis of the deposited data

Results flagged for a closer look

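Of 19 genes whose Tg effect differed between the selected nuclei without Prox1/Reln gating and the other endothelial nuclei by the interaction term in edgeR, the 5 with the largest lower effect and the 1 with a higher effect are given. The differences were -3.42 for Ednra, -3.06 for Bmper, -2.65 for Arhgap42, -2.64 for Vwc2, -2.55 for Kcnb2 and 3.33 for Gxylt2 on the log2 scale. Over all selected nuclei none of them passed the threshold, and none did with free RNA subtracted. In nuclei also without other lineages' UMIs the differences were 0.29, -0.08, -1.42, -0.10, -0.20 and 4.28.

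Wdr17 was higher in the free RNA of the Tg mice, with a log2 ratio of 2.36 to the WT mice. This difference has no test. The free RNA barcodes lie outside the nuclei that the comparisons use, and whether some held a nucleus was not tested.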

How the results depend on the processing

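The fit over all selected nuclei called 261 genes, and other fits called 188 with DESeq2, 299 with library totals, 765 without a filter on low counts, 151 with at least 5 arterial UMIs, 243 with at least 3000 UMIs, 1 with free RNA subtracted and 119 without other lineages' UMIs. Leaving out 1 mouse gave 116 (Tg replicate 1) to 797 (WT replicate 2). Without Prox1/Reln gating the 221 became 4 with free RNA subtracted and 90 without other lineages' UMIs, and 63 (Tg replicate 1) to 631 (WT replicate 2) without 1 mouse. The lone mouse is then assumed to vary like the others. With the replicate block the counts were 639 and 244. The labels tie no numbers to shared litters, and same-numbered mice had a correlation of deviations of 0.04. The interaction, with 0 calls, had 29 without a filter, 2 with 5 arterial UMIs, 19 without gated nuclei, 34 in nuclei not gated with a UMI of Stk32a, Dkk2, Esr2 or Gja5 (the 4-gene set), 39 without other lineages' UMIs (29 higher, 10 lower) and 3 (Tg replicate 1) to 249 (WT replicate 1) without 1 mouse. The share difference stayed positive, between 1.01 (without Tg replicate 1) and 2.89 points without 1 mouse.

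Slit2 turned to 0.37 without other lineages' UMIs (log2), a value set in part by that filter, whose fibroblast list holds Slit2. Scgb1a1 was at -1.24 with free RNA subtracted, a value set by the subtraction itself, which was scaled by this gene among others. Of genes not called, where Stk32a, Thsd7a, Esr2, Gja5 and Dkk2 are genes of the selection and their values a description, Terf2 ranged from -0.41 to 0.40 without 1 mouse and was 0.043 with 3000 UMIs, 0.0039 with free RNA subtracted, 0.19 without gated nuclei. Stk32a ranged from -0.69 to 0.43 without 1 mouse and was 0.038 in the 4-gene set. Thsd7a ranged from -0.23 to 0.19 without 1 mouse and was 0.010 with the replicate block, 0.0011 with 5 arterial UMIs, 0.19 without gated nuclei, 0.36 in the 4-gene set. Esr2 ranged from -0.46 to 0.46 without 1 mouse and was 0.29 with 5 arterial UMIs, 0.086 in the 4-gene set, 0.082 without other lineages' UMIs. Gja5 ranged from -0.42 to 0.80 without 1 mouse, Dkk2 from 0.05 to 2.95 and Cdkn1a from 0.66 to 3.87.

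Leaving out members with 5 UMIs of any other lineage list could not be run, since 1, 0, 0 and 0 nuclei remained.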

Other observations

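Within 1000000 bases on either side of Wdr17, 3 other genes were tested in the selected nuclei, and none passed the threshold. Vegfc, a lymphatic growth factor, had 46 and 54 UMIs in WT mice and 92 and 55 UMIs in Tg mice, and the log2 fold change was -0.74 with an adjusted p of 0.26 (edgeR). Spcs3, a subunit of the signal peptidase, had a log2 fold change of 0.10, and Gpm6a, a membrane glycoprotein, of 0.40. The window was chosen after the value of Wdr17 was seen.

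Gsdme and Synpr had little signal in WT mice and were higher in Tg mice in both the selected nuclei and the free RNA. The nuclear values are fitted changes, while the free RNA values are log2 ratios of mean CPM + 1, so that their sizes cannot be compared directly. With free RNA subtracted only Wdr17 was called over all selected nuclei. Gsdme, a gasdermin of cell lysis, had 1 and 2 UMIs in WT mice and 58 and 52 in Tg mice, and the log2 fold change was 3.85 with an adjusted p of 0.0093 in edgeR, beside a log2 ratio of 2.09 in the free RNA. Synpr, a synaptic vesicle protein, had 2 and 1 against 49 and 49 UMIs, with 3.69 in the nuclei and 1.42 in the free RNA. Both rose in the other endothelial nuclei too, by 2.64 and 3.98. Igfbp5, a binder of insulin-like growth factors on the senescence secretory list, was at 286 and 493 CPM in WT mice and 761 and 947 CPM in Tg mice, and the log2 fold change of 1.18 did not pass, with an adjusted p of 0.063 (edgeR), beside a log2 ratio of 1.19 in the free RNA. These genes were chosen after their values were seen.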
